A study of Mus musculus with 4 samples.

Results

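The genes described here are 10 subunits and feedback genes of NF-kB, taken from a fixed list of symbols out of the 20063 distinct gene symbols of a single-cell RNA-seq matrix of mouse lung. All 10 were found by symbol. They are the subunits Nfkb1, Nfkb2, Rel, Rela and Relb, the IkB proteins Nfkbia, Nfkbiz and Bcl3, and the feedback genes Tnfaip3 and Birc3. Their levels were read across lung cell types and compared between groups labelled WT (2 libraries) and ERG CKO (2 libraries), with 1 whole mouse lung behind each library. The question behind the comparison was how loss of the transcription factor ERG from endothelium alters lung cells. WT mice were ERG fl/fl, with both Erg alleles floxed and no Cre, and ERG CKO mice were CDH5-CreER(T):ERG fl/fl. The promoter of Cdh5, which encodes VE-cadherin, drives the Cre in endothelial cells (ECs), and the Cre becomes active after tamoxifen. Both groups received tamoxifen, as 5 daily doses of 0.5 mg, and lungs were taken 90 days after it. The mice were on a C57/BL6 background, and the labels give no age for them.

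NF-kB is a family of dimeric transcription factors that drives genes of inflammation, cell survival and lymphoid development. In resting cells the dimers are held in the cytoplasm by IkB proteins, of which IkB alpha, the product of Nfkbia, is the best known. Signals from TNF, interleukin 1 and Toll-like receptors activate the IkB kinases, IkB is degraded, and the dimers enter the nucleus, where they also switch on their own inhibitors. Nfkbia and Tnfaip3, which encodes the ubiquitin-editing enzyme A20, are the classical genes of this negative feedback. In endothelium the pathway is known for inducing leukocyte adhesion molecules.

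The 4 libraries held 1852 to 3097 cells with medians of 4611 to 4899 UMIs (unique molecular identifiers, each marking 1 captured RNA molecule). Clusters were named from marker genes, and 15 classes had at least 10 cells in every library. UMIs were summed over the cells of a class within each library, which makes each mouse 1 replicate, and levels are given in CPM, the UMIs of a gene scaled to 1000000 UMIs of the class in that library. In ECs, all 8 EC markers were detected in every library, and their summed level was 13499 and 14346 CPM in WT and 11921 and 12957 CPM in ERG CKO. In ECs of WT replicates 1 and 2, Erg was at 85.7 and 89.2 CPM, against 106 and 81.5 CPM for ERG CKO, so the groups overlapped (log2 fold change 0.07, SE 0.16, edgeR adjusted p = 0.891). The counts cover 1 value per gene, so they do not show whether the floxed part of the transcript was lost, and the ERG CKO libraries go by their label.

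The promoters of feedback genes are known for NF-kB sites, and windows of 300 bases around transcript starts were available in RefSeq (GRCm38.p6) for 7 of the 10 genes. The 10-base NF-kB consensus, searched on both strands, was present in at least 1 window of 5 of them, Nfkbia, Tnfaip3, Rel, Nfkb2 and Bcl3, and in no window of Rela or Birc3. Among all 27025 genes with a window, 2581 (9.55%) held it in at least 1, and among all 32851 windows 2779 (8.46%) did. The consensus reads nearly the same on both strands, so matches on opposite strands overlap. These stretches are shown because they belong to the 2 classical feedback genes, to Rel and to Bcl3, the gene called in ECs. Each is written 5′ to 3′ on the strand of the gene, which is the minus strand in all 4 cases, with bases of a match in capitals.
Nfkbia, chr12:55492648-55492707: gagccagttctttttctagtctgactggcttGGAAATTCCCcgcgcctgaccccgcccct
Tnfaip3, chr10:19015411-19015470: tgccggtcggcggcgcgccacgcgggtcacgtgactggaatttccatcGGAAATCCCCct
Rel, chr11:23771027-23771086: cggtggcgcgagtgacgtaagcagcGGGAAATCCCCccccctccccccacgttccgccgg
Bcl3, chr7:19822744-19822773: ttcagttcagtcggcggcagGGGAAGTCCC
The stretches of Nfkbia and Tnfaip3 end at the base before the transcript start, the one of Rel lies further upstream, and the one of Bcl3 spans the start of the transcript used for its window. In Rel the capitals cover 2 matches shifted by 1 base. A match describes letters in a window and is no evidence of binding. Nfkbiz, Nfkb1 and Relb were not matched in the table.

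The 10 genes differed widely in where they were expressed. The order of classes rests on the mean over the 4 libraries, and neighbouring classes whose ranges overlapped are not told apart by it. It is a description with no test, since the clusters were made from the same cells. Among the DNA-binding subunits, Rel (c-Rel, a subunit typical of lymphoid and myeloid cells) was highest in B cells at 831 CPM (range 739.7 to 924), followed by the monocyte cluster led by Treml4 at 669 CPM (624 to 713). The ranges of these 2 classes did not overlap with each other or with the third class, dendritic cells at 333 CPM. Rel in ECs was at 54.0 CPM, rank 11 of 15.

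Rela (p65, the main activating subunit) was the only one of the 10 genes whose highest class was ECs, at 100.1 CPM (79.1 to 124). The EC range lay above that of alveolar macrophages, the next class, at 68.9 CPM (61.7 to 77.0), and overlapped those of neutrophils (54.8 to 84.8) and Treml4 monocytes (54.6 to 80.6). Its span was also the narrowest of the 10 genes, with the highest class at 2.70 times the lowest, T cells at 37.1 CPM. Nfkb1 (p105, the precursor of p50) was highest in a mixed cluster of T and innate lymphoid cells at 441 CPM (296 to 604), which overlapped Treml4 monocytes at 310 CPM. ECs held rank 8 for Nfkb1, at 146 CPM.

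For Nfkb2 and Relb, the p100/p52 and RelB subunits of the alternative pathway, no neighbouring classes were separated in any of 14 steps of the order. Nfkb2 was highest in Treml4 monocytes at 65.1 CPM (43.3 to 76.0) and next in B cells at 59.0 CPM. Relb was highest in B cells at 67.9 CPM (59.6 to 80.9), and ECs held rank 4 at 44.0 CPM.

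The IkB genes and the feedback genes had their highest level in neutrophils, each with a range above those of the other 14 classes. Nfkbia reached 2963 CPM in neutrophils (2399.5 to 3494), against 1408 CPM in the mixed T and innate lymphoid cluster and 951 CPM in ECs (rank 5). Nfkbiz (IkB zeta, a nuclear co-activator of secondary response genes) reached 1484 CPM (1272 to 1589), against 264 CPM in Treml4 monocytes and 213 CPM in ECs (rank 4). Bcl3 (a nuclear IkB that partners with p50 and p52) reached 115 CPM (101 to 137), against 64.8 CPM in the monocyte cluster led by Ccr2 and 39.9 CPM in ECs (rank 4).

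Tnfaip3 had the widest span, from 832 CPM in neutrophils (762 to 922) to 13.1 CPM in epithelial cells. It followed in the mixed T and innate lymphoid cluster at 575 CPM, in NK cells at 453 CPM and in T cells at 293 CPM, while ECs were at 36.7 CPM, rank 11. Birc3 (cIAP2, a ubiquitin ligase that restrains the alternative pathway and blocks cell death) reached 269.7 CPM in neutrophils (237 to 319) and 158 CPM in B cells (155 to 162), and both ranges were separate from the class after them. ECs were at 45.5 CPM for Birc3, rank 10.

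A class too small to be tested stood above the others for 2 of these genes. In the cluster named mast cells or basophils, with 20, 11 and 3 cells in WT replicates 1 and 2 and ERG CKO replicate 1 and none in ERG CKO replicate 2, Nfkbia was at 10429, 13760 and 18478 CPM. Tnfaip3 was at 1890, 1734 and 2362 CPM in the same cells. All of these values were above those of neutrophils.

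**Figure D1:**
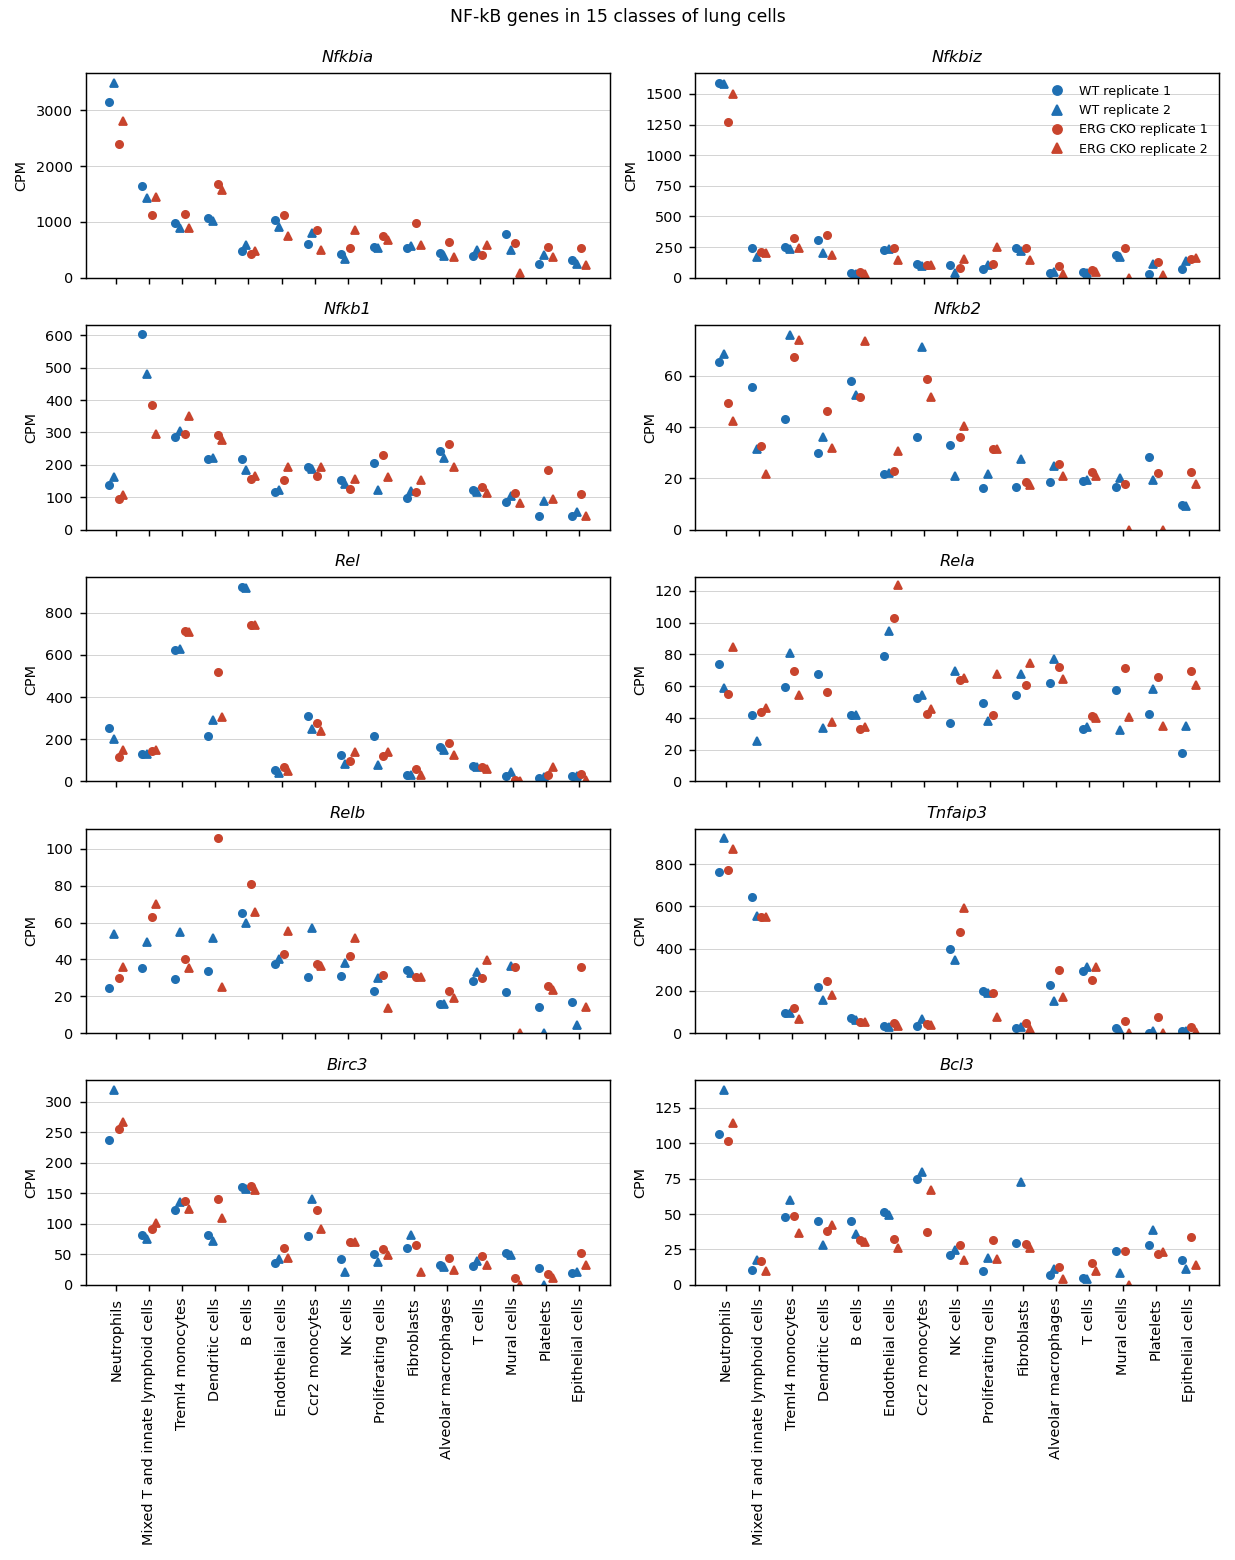
Level of each of the 10 genes (vertical axis, CPM, from 0) in 15 classes of lung cells (horizontal axis), with 1 point per library, blue for WT and red for ERG CKO, circles for replicate 1 and triangles for replicate 2. Neutrophils hold the highest values of Nfkbia, Nfkbiz, Tnfaip3, Birc3 and Bcl3, B cells and Treml4 monocytes those of Rel, and ECs those of Rela.

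ECs are the cells in which the Cre of ERG CKO mice is meant to act. In the sum over all ECs, Bcl3 was the 1 member called at an edgeR adjusted p of at most 0.05 (quasi-likelihood test, p adjusted over all genes tested), and it was lower in ERG CKO. All 10 members were tested. Over all 10667 genes tested in ECs, 3.59% were called. Bcl3 was at 51.7 and 49.4 CPM in WT replicates 1 and 2, from 140 and 150 UMIs. The ERG CKO values were 32.5 and 26.0 CPM, on 143 and 71 UMIs. Both ERG CKO libraries lay below both WT libraries, and Bcl3 fell by 0.82 on the log2 scale (SE 0.17, edgeR adjusted p = 0.0459). The call rested on a narrow margin. In fits that leave out a library, 1 group keeps 1 mouse and has no spread of its own, so passing in them is not counted as support. The adjusted p became 0.204 or 0.222 when WT replicate 1 or 2 was left out, 0.0796 when ERG CKO replicate 2 was, and 0.110 with DESeq2, and the direction stayed in all of these.

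The next member by p was Nfkb1. Its level was 115 and 122 CPM in WT and 155 and 194 CPM in ERG CKO, with both ERG CKO libraries above both WT libraries. The log2 fold change was 0.51 (SE 0.14), and the call was missed (edgeR adjusted p = 0.101). Without ERG CKO replicate 1 the log2 fold change was 0.63. Rela was at 79.1 and 94.5 CPM in WT and 103 and 124 CPM in ERG CKO (log2 fold change 0.33, SE 0.14, adjusted p = 0.288).

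A further 4 members were above WT in both ERG CKO libraries without being called. Nfkb2 was at 21.8 and 22.1 CPM in WT and 22.7 and 30.7 CPM in ERG CKO, and Relb at 37.3 and 40.2 against 43.1 and 55.2 CPM. Tnfaip3 was at 35.1 and 28.6 against 47.2 and 35.8 CPM, and Birc3 at 35.5 and 42.8 against 59.7 and 43.9 CPM. Their log2 fold changes lay between 0.22 and 0.38, with adjusted p from 0.397 to 0.672 (edgeR). In all, the groups did not overlap with ERG CKO higher for 6 members, where 28.5% of all genes tested in ECs had that pattern, and with ERG CKO lower for 1 member, where 19.5% of all genes had it. The median log2 fold change of the 10 members was 0.31, beside 0.01 over all genes tested.

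Nfkbia, Nfkbiz and Rel overlapped between the groups. Nfkbia was at 1038 and 907 CPM in WT and 1117 and 743 CPM in ERG CKO, and Nfkbiz at 228 and 234 against 245 and 145 CPM, so that for both genes ERG CKO replicate 1 held the highest value and ERG CKO replicate 2 the lowest. Their log2 fold changes were -0.10 (SE 0.21, adjusted p = 0.867) and -0.28 (SE 0.23, adjusted p = 0.636). Without ERG CKO replicate 1, the log2 fold change of Nfkbiz was -0.75. Rel was at 53.2 and 41.5 CPM in WT and 69.9 and 51.2 CPM in ERG CKO.

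**Figure D2:**
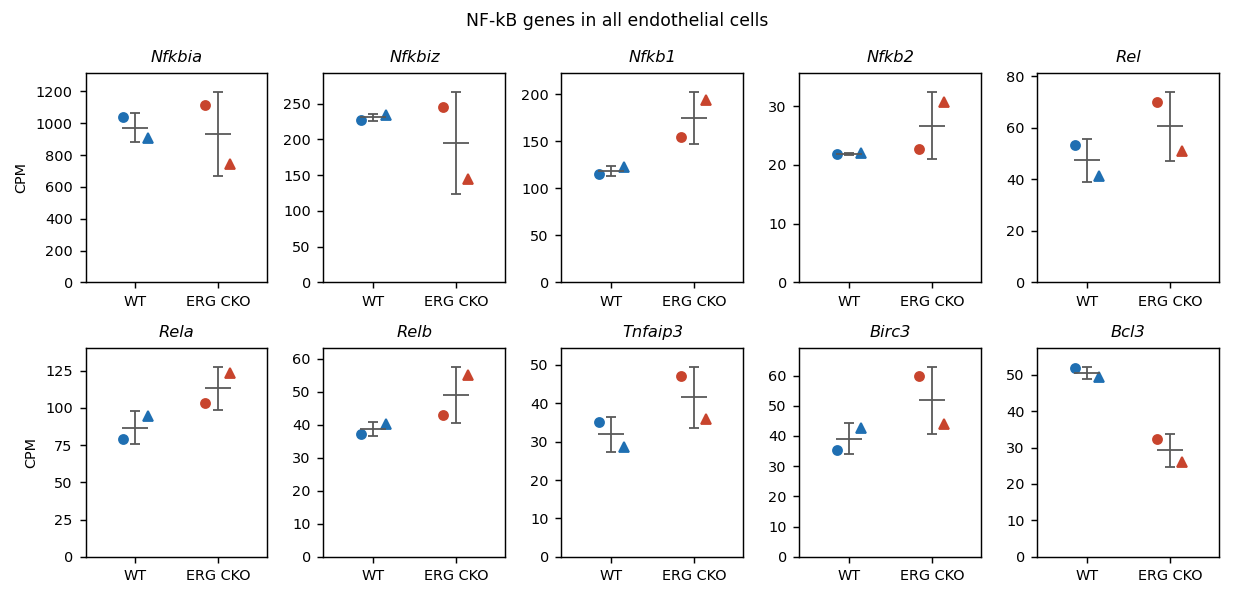
Level of each of the 10 genes in all ECs (vertical axis, CPM, from 0) by group, with 1 point per library (circle replicate 1, triangle replicate 2) and the group mean with its SD (n = 2) in grey. Bcl3 lies lower in both ERG CKO libraries, and Nfkb1 and Rela lie higher.

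Several other measures moved with genotype in the EC sum. The 14 immediate early genes (rapidly induced genes such as Fos, Jun and Egr1, which tissue dissociation also induces) summed to 22038 and 24015 CPM in WT and 18068 and 18111 CPM in ERG CKO, and all 14 had a log2 fold change below 0, although none was called in ECs (median -0.42). The 7 erythroid markers summed to 34.4 and 44.8 CPM in WT and 1603 and 2172 CPM in ERG CKO. In each of the 5 EC subtypes the erythroid sum was at most 217 CPM. The 8 platelet markers summed to 57.3 and 100.1 CPM in WT and 284 and 199.6 CPM in ERG CKO. The part of these in the changes of the members was not tested.

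The make-up of the EC sum also differed. General capillary ECs (gCap ECs, the common capillary cell) made up 71.9% and 67.0% of ECs in WT, against 33.7% and 32.8% for ERG CKO. Aerocytes (aCap ECs, the large capillary cells specialised in gas exchange) made up 9.05% and 13.6% in WT, against 18.5% and 22.3% for ERG CKO. A cluster led by Tgfbi and F8, which matched no subtype by its markers, held 0.670% and 0.868% of ECs in WT, against 22.0% and 25.3% for ERG CKO. With that cluster left out, no member was called in ECs, where 1.95% of genes were: Bcl3 had a log2 fold change of -0.75 (SE 0.19, adjusted p = 0.104, edgeR) and Nfkb1 one of 0.36 (SE 0.15, adjusted p = 0.319).

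To ask whether the members changed differently in ECs than elsewhere, the change in ECs was compared with the change in all other named cells of the same libraries. No member differed at an adjusted p of at most 0.05, with 0.12% of genes called, and 2 members had an unadjusted p under 0.05, as did 9.11% of all genes. These were Bcl3, with a difference of -0.91 between the log2 fold changes (SE 0.31, adjusted p = 0.398), and Nfkbiz, with one of -0.67 (SE 0.26, adjusted p = 0.492, edgeR). DESeq2 also called none. Without ERG CKO replicate 1, the difference of Nfkbiz was -0.98.

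In aCap ECs, 3 members rose in ERG CKO. Of the 10 members, all of which passed the filter on low counts there, 3 were called higher and none lower, where 10.6% of all genes tested in aCap ECs were called. The sums held 54 and 94 cells in WT and 139 and 122 cells in ERG CKO. Nfkb1 was at 127 and 89.9 CPM in WT and 206 and 243 CPM in ERG CKO, with no overlap (log2 fold change 1.06, SE 0.21, edgeR adjusted p = 0.00525). Nfkbiz was at 92.4 and 95.3 CPM in WT and 239 and 130 CPM in ERG CKO (log2 fold change 0.97, SE 0.28, edgeR adjusted p = 0.0409). For both genes the lower ERG CKO library was above the higher WT library.

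Birc3 was nearly absent from aCap ECs of WT, at 11.5 and 1.80 CPM from 4 and 1 UMIs, and was at 50.2 and 36.2 CPM in ERG CKO, from 37 and 20 UMIs. Its ratio over the summed UMIs of each group was 7.98 (95% exact interval 3.23 to 25.5, which covers counting error only), and its fitted log2 fold change was 2.89 (SE 0.60, edgeR adjusted p = 0.00658). The filter on low counts kept genes with at least 18.0 CPM in 2 libraries of aCap ECs. Birc3, Tnfaip3 and Nfkb2 passed it only through the ERG CKO libraries and Bcl3 only through the WT libraries, so a difference in that direction was favoured by the filter for these 4 genes. Nfkb1 and Nfkbiz passed it in both groups.

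All 3 calls in aCap ECs depended on single libraries. Without WT replicate 2, the log2 fold change was 0.79 for Nfkb1 (adjusted p = 0.0793) and 1.88 for Birc3 (adjusted p = 0.0563). Without WT replicate 1 it was 4.43 for Birc3. Without ERG CKO replicate 1, it was 0.42 for Nfkbiz (adjusted p = 0.477), and Nfkbiz was also lost with DESeq2 (adjusted p = 0.183). Direction was kept in each of these fits.

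Tnfaip3 and Relb showed differences of like size in aCap ECs without passing the threshold. Tnfaip3 was at 14.4 and 16.2 CPM in WT and 43.4 and 32.6 CPM in ERG CKO (log2 fold change 1.28, SE 0.42, adjusted p = 0.0781). Relb was at 20.2 and 23.4 CPM in WT and 56.9 and 39.8 CPM in ERG CKO (log2 fold change 1.12, SE 0.37, adjusted p = 0.0818). Both ERG CKO libraries were above both WT libraries for these genes, and also for Nfkbia (661 and 500.0 against 961 and 677 CPM), Nfkb2 (11.5 and 16.2 against 21.7 and 34.4 CPM) and Rel (46.2 and 28.8 against 56.9 and 56.1 CPM). Without ERG CKO replicate 2, the log2 fold changes of Tnfaip3, Relb and Nfkbia were 1.47, 1.35 and 0.73. Rela and Bcl3 overlapped, with log2 fold changes of 0.06 (SE 0.21) and -0.36 (SE 0.47). In all, the groups did not overlap with ERG CKO higher for 8 members, where 28.1% of all genes tested in aCap ECs had that pattern. Of these 8, the 3 genes Birc3, Tnfaip3 and Nfkb2 passed the low-count filter only through ERG CKO, which favoured it. With ERG CKO lower the groups were apart for none, where 22.6% of all genes were. The median log2 fold change was 0.94 over the 10 members and 0.80 over the 6 that passed the filter in both groups, beside 0.02 over all genes.

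**Figure D3:**
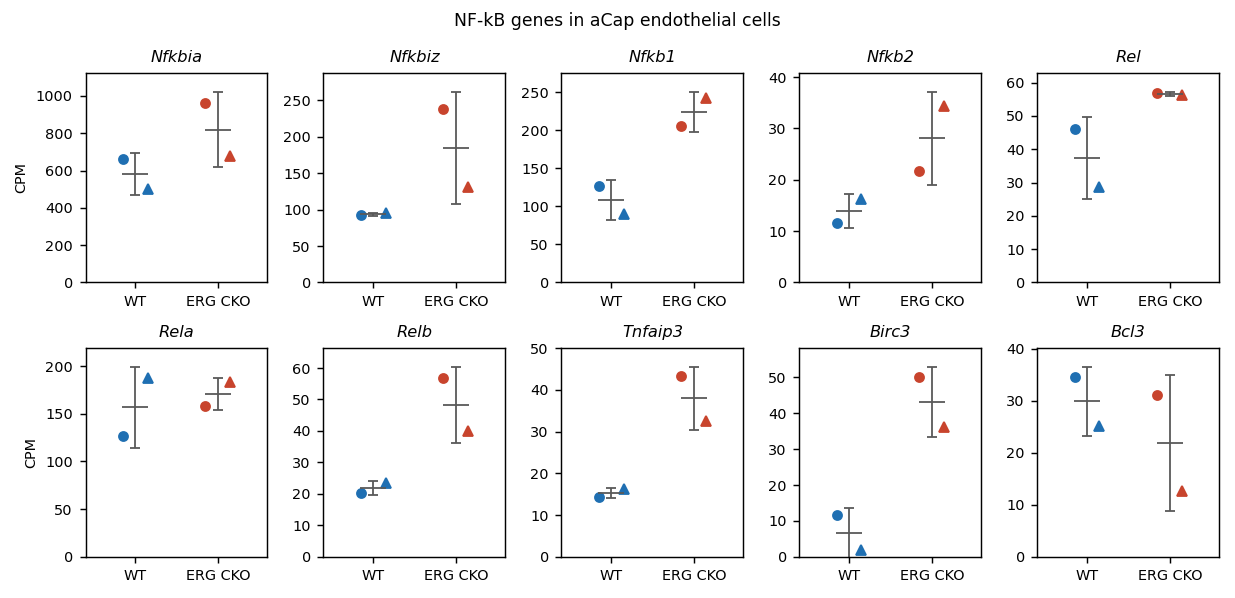
Level of each of the 10 genes in aCap ECs (vertical axis, CPM, from 0) by group, with 1 point per library (circle replicate 1, triangle replicate 2) and the group mean with its SD (n = 2) in grey. Both ERG CKO libraries lie above both WT libraries for 8 genes, as they do for 28.1% of all genes tested there, and Rela and Bcl3 overlap. Among the 8, Birc3, Tnfaip3 and Nfkb2 passed the low-count filter only through ERG CKO.

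Cells named aCap in ERG CKO held less of the markers that name them. The 8 aCap markers summed to 15503 and 15487 CPM in WT and 5087 and 7383 CPM in ERG CKO, and the 7 gCap markers to 2439 and 1901 CPM against 1516 and 1465 CPM. The 14 immediate early genes summed to 10628 and 12068 CPM in WT and 17618 and 15390 CPM in ERG CKO, the opposite order to that in all ECs. Of the 14, 7 were called higher, where 10.6% of all genes tested in aCap ECs were called in either direction. Platelet markers summed to 162 and 259 CPM in WT and 647 and 442 CPM in ERG CKO. The part of these in the changes of Nfkb1, Nfkbiz and Birc3 was not tested. The class joined a deep and a shallow cluster, and in the deep cluster alone the same 3 members were called, where 10.7% of genes were (log2 fold changes 0.92 for Nfkb1, 0.99 for Nfkbiz and 2.97 for Birc3, adjusted p = 0.00919, 0.0182 and 0.00279, edgeR). In that deep cluster the aCap markers summed to 15733 and 15694 CPM in WT and 5378 and 8309 CPM in ERG CKO.

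In gCap ECs no member was called, with 0.158% of genes called and 1 member, Bcl3, at an unadjusted p under 0.05, where 8.69% of all genes were. Bcl3 was at 54.6 and 55.8 CPM in WT and 38.0 and 39.0 CPM in ERG CKO (log2 fold change -0.54, SE 0.19, adjusted p = 0.397). Nfkb1 was at 118 and 136 CPM in WT and 107 and 140.1 CPM in ERG CKO, so the groups overlapped. Without ERG CKO replicate 1, the log2 fold change of Nfkbiz was -0.73. The 14 immediate early genes summed to 24891 and 27565 CPM in WT gCap ECs and 21405 and 17187.5 CPM in ERG CKO, the opposite order to that in aCap ECs. The 7 venous markers summed to 478 and 378 CPM in WT and 1008 and 769 CPM in ERG CKO. The part of these in the values of the members was not tested.

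In venous ECs 9 members were tested and none was called, with 0.147% of genes called and 3 members at an unadjusted p under 0.05, where 10.9% of all genes were. All 3 were lower in ERG CKO. Nfkbiz was at 405 and 567 CPM in WT and 282 and 103 CPM in ERG CKO (log2 fold change -1.29, SE 0.36, adjusted p = 0.160, edgeR). Bcl3 was at 79.2 and 60.9 CPM against 32.3 and 17.1 CPM (log2 fold change -1.35, adjusted p = 0.204; it passed the low-count filter only through WT), and Nfkbia at 1493 and 1590 against 1308 and 558 CPM (log2 fold change -0.77, adjusted p = 0.395). The ERG CKO replicate 2 sum held 25 venous cells and the lowest value of all 3 genes. Nfkbiz passed when WT replicate 1 or either ERG CKO library was left out (log2 fold changes -1.55, -2.38 and -0.85, adjusted p = 0.0034, 0.0152 and 0.0395), Nfkbia without ERG CKO replicate 1 (-1.59, adjusted p = 0.00628) and Tnfaip3 without ERG CKO replicate 2 (1.36, adjusted p = 0.0488). In the same cells the immediate early genes summed to 22506 and 27973 CPM in WT and 15723 and 14506 CPM in ERG CKO. The 7 venous markers summed to 8450.1 and 9454 CPM in WT and 6497 and 5450.3 CPM in ERG CKO, and the 8 platelet markers to 45.9 and 99.4 CPM against 189 and 171 CPM. The part of these in the values of the members was not tested. In arterial ECs, with 17 to 21 cells per library, 4 members were tested and none was called, as was no gene (0%).

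The changes in aCap ECs were set against those of the other subtypes in tests added after these values were seen. The change in aCap ECs exceeded that in gCap ECs for Nfkb1 (difference of log2 fold changes 1.14, SE 0.25, edgeR adjusted p = 0.0059), Nfkbiz (1.07, SE 0.22, adjusted p = 0.0042) and Birc3 (2.68, SE 0.62, adjusted p = 0.00918), where 6.55% of genes differed. DESeq2 called none of the 3, with adjusted p of 0.270, 0.203 and 0.186. Without WT replicate 2, edgeR lost all 3, with differences of 0.76, 1.14 and 1.44 (adjusted p = 0.280, 0.0837 and 0.402), and without WT replicate 1 the difference of Nfkbiz was 1.01 (adjusted p = 0.0674) and that of Birc3 was 4.38 (adjusted p = 0.0170).

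Against venous ECs, the change in aCap ECs was greater for Nfkbiz (2.39, SE 0.29, adjusted p = 6.5e-07), Nfkbia (1.38, SE 0.23, adjusted p = 7.27e-05) and Birc3 (2.75, SE 0.73, adjusted p = 0.0158), where 6.16% of genes differed. The differences of Nfkbiz and Nfkbia passed with DESeq2 (adjusted p = 0.000609 and 0.0154). Over the 6 alternative fits they ranged from 2.14 to 2.86 and from 1.04 to 1.84. Birc3 was lost without WT replicate 2 (1.36, adjusted p = 0.615), and without WT replicate 1 its difference was 4.47. The sums compared came from the same 4 libraries.

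**Figure D4:**
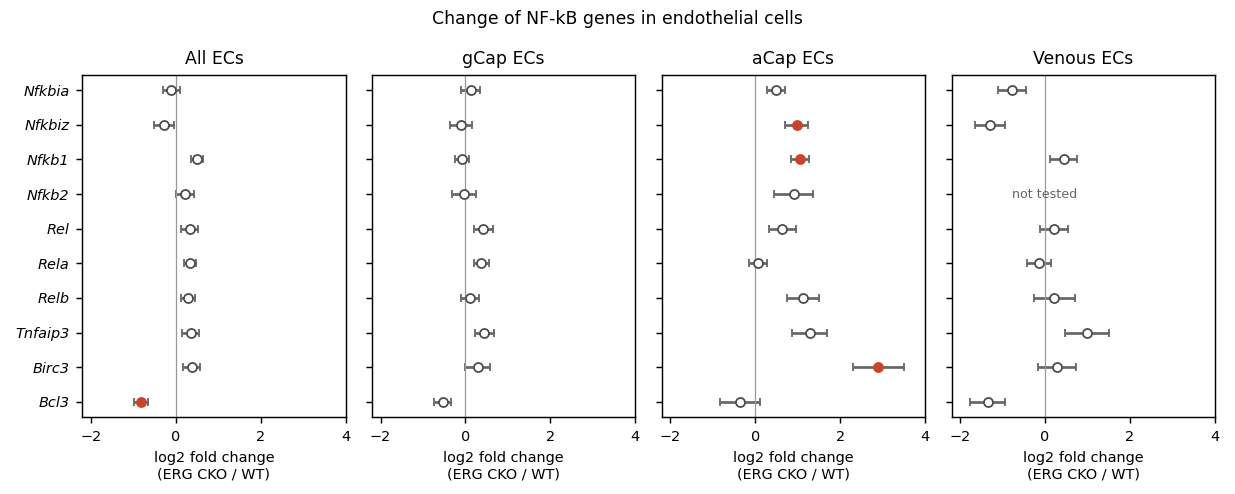
Log2 fold change of ERG CKO over WT (horizontal axis) for the 10 genes (vertical axis) in all ECs and in 3 EC subtypes, with bars of 1 SE. Filled points passed an edgeR adjusted p of at most 0.05, and these are Bcl3 in all ECs and Nfkbiz, Nfkb1 and Birc3 in aCap ECs.

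The Tgfbi and F8 ECs held 165 and 138 cells in the ERG CKO libraries and 4 and 6 cells in WT, so no comparison of genotypes was made. Within the ERG CKO libraries, Nfkb1 in these cells was at 214 and 237 CPM, above the 137 and 178 CPM of the remaining ECs, and close to the 206 and 243 CPM of aCap ECs. Nfkb2 was likewise higher than in the remaining ECs in both libraries (30.2 and 36.3 against 20.5 and 28.6 CPM), as were Rela (116 and 132 against 99.4 and 121 CPM) and Relb (46.2 and 57.8 against 42.2 and 54.2 CPM). The other members differed in opposite directions between the libraries or were lower in both. These cells were clustered by their expression, although the members were left out of the genes used, and the values are a description.

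Outside ECs no member was called in any of the 14 other classes tested with edgeR. DESeq2 also called none there. The share of all genes called was 0% in alveolar macrophages, epithelial cells, neutrophils, platelets, proliferating cells and Treml4 monocytes, 0.0121% in T cells, 0.0225% in Ccr2 monocytes, 0.0481% in fibroblasts, 0.0881% in B cells, 0.0962% in NK cells, 0.0981% in mural cells, 0.166% in the mixed T and innate lymphoid cluster and 0.473% in dendritic cells. Of 120 tests of members in these classes, 12 had an unadjusted p under 0.05, where 5.75% of the tests of all genes had one. These were 3 members in dendritic cells, where 8.95% of all genes had such a p, 3 in NK cells, where 5.45% had, and 1 each in epithelial cells, mural cells, neutrophils, proliferating cells, T cells and the mixed cluster.

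The smallest p in NK cells belonged to Nfkbia, at 434 and 338 CPM in WT and 526 and 847 CPM in ERG CKO (log2 fold change 0.80, SE 0.20, adjusted p = 0.237). It passed without WT replicate 1 (adjusted p = 0.0282) and without ERG CKO replicate 1 (adjusted p = 2.66e-05). In dendritic cells Nfkbia was at 1078 and 1021 CPM in WT and 1674 and 1567 CPM in ERG CKO (log2 fold change 0.62, SE 0.15, edgeR adjusted p = 0.178). The log2 fold change was 0.64 without WT replicate 1 and 0.63 without WT replicate 2. In T cells Bcl3 had low levels, 4.90 and 4.22 CPM in WT from 11 and 8 UMIs and 15.4 and 10.1 CPM in ERG CKO from 38 and 15 UMIs (log2 fold change 1.53, SE 0.39, adjusted p = 0.457), the opposite order to ECs. Without ERG CKO replicate 2 the log2 fold change of Bcl3 was 1.75, and Bcl3 passed the low-count filter in T cells only through ERG CKO. In the mixed T and innate lymphoid cluster Nfkb1 had a log2 fold change of -0.68 (SE 0.20, edgeR adjusted p = 0.321), and one of -0.83 without WT replicate 2. In each of these 4 comparisons the libraries of the groups did not overlap. The share of all genes with that pattern was not computed in these classes. In ECs it was 28.5% with ERG CKO higher and 19.5% with ERG CKO lower. Rel in dendritic cells had a log2 fold change of 0.70 in the main fit, 1.01 without WT replicate 2 and 1.04 without ERG CKO replicate 2. Relb there had one of 0.70 in the main fit and 1.27 without ERG CKO replicate 2. In dendritic cells the 8 platelet markers summed to 59.9 and 95.7 CPM in WT and 395 and 1090 CPM in ERG CKO, and in NK cells the 8 neutrophil markers to 12.2 and 13.9 CPM against 61.3 and 44.1 CPM. The part of these in the values of the members was not tested.

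The rest of the pathway was read from lists of 68 genes beside the members. Of these, 60 were tested in ECs, and 2 were called higher and 1 lower in ERG CKO, where 3.59% of all genes tested were called. All 3 were among the 27 targets of NF-kB, of which 23 were tested. Sdc4 (syndecan 4, a cell surface proteoglycan) was at 79.8 and 72.8 CPM in WT and 179 and 189 CPM in ERG CKO and rose by 1.23 on the log2 scale (SE 0.12, edgeR adjusted p = 0.00556). Nos2 (inducible nitric oxide synthase) was at 4.07 and 2.30 CPM against 14.5 and 18.3 CPM (log2 fold change 2.31, SE 0.36, adjusted p = 0.0204). Both were higher in each ERG CKO library, and Nos2 passed the low-count filter only through ERG CKO.

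Lcn2 (lipocalin 2, an iron-binding protein of innate defence) was at 14.8 and 14.2 CPM in WT and 2.50 and 0.731 CPM in ERG CKO and fell by 3.03 on the log2 scale (SE 0.46, edgeR adjusted p = 0.0185). The cluster named lymphatic ECs had Lcn2 among its leading genes. Without WT replicate 2 none of the 3 was called, with adjusted p of 0.0848 for Sdc4, 0.136 for Nos2 and 0.128 for Lcn2, and Lcn2 was also lost without WT replicate 1 (adjusted p = 0.0836). Lcn2 passed the low-count filter only through WT.

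None of the 20 receptors and adaptors tested, the 5 activating kinases tested or the 12 other inhibitors tested was called in ECs. Among receptors and adaptors, the smallest p belonged to Ripk1 (a kinase downstream of TNF receptors), at 125 and 116 CPM in WT and 89.9 and 67.6 CPM in ERG CKO (log2 fold change -0.64, SE 0.16, adjusted p = 0.0870), and Traf5 (an adaptor of TNF family receptors; log2 fold change -0.51, SE 0.14, adjusted p = 0.113). Ripk1 passed without ERG CKO replicate 1 (adjusted p = 0.0171). Among kinases they belonged to Ikbkg (NEMO, the regulatory subunit of the IkB kinase; 0.54, SE 0.29, adjusted p = 0.411) and Ikbkb (the kinase that phosphorylates IkB alpha; 0.13, SE 0.12, adjusted p = 0.666).

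Among the other inhibitors the smallest p belonged to N4bp1 (an inhibitor acting on NEMO; log2 fold change -0.59, SE 0.13, adjusted p = 0.0590) and Nfkbie (IkB epsilon), which was at 4.43 and 5.60 CPM in WT and 12.7 and 12.4 CPM in ERG CKO (1.27, SE 0.31, adjusted p = 0.0790). For the immediate early genes they belonged to Egr1 (-0.55, SE 0.12, adjusted p = 0.0543) and Ier2 (-0.57, SE 0.13, adjusted p = 0.0595), both transcription regulators of the rapid response. DESeq2 called both, with adjusted p of 0.0201, and Egr1 passed without ERG CKO replicate 1 (adjusted p = 0.0416).

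In aCap ECs the target list had 13 genes tested, of which 6 were called higher and 1 lower, where 10.6% of all genes tested were called. The genes named here for aCap ECs were chosen after their values were seen. Vcam1, the adhesion molecule for lymphocytes and monocytes, was at 14.4 and 8.99 CPM in WT and 96.2 and 81.5 CPM in ERG CKO (log2 fold change 2.96, SE 0.37, adjusted p = 0.000195, edgeR). Csf1, the macrophage growth factor, was at 11.5 and 12.6 against 104 and 114 CPM. Sdc4 was at 54.8 and 25.2 against 299.6 and 328 CPM. Cxcl10, Ptgs2 and Gadd45b were the other 3 called higher. Vcam1, Csf1, Cxcl10 and Ptgs2 passed the low-count filter only through ERG CKO, which favoured a difference, while Sdc4 and Gadd45b passed it in both groups.

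Icam1, an adhesion molecule for neutrophils, was the 1 target called lower in aCap ECs, at 430.1 and 519.8 CPM in WT and 281 and 281 CPM in ERG CKO (log2 fold change -0.79, SE 0.18, adjusted p = 0.0117). None of the 16 receptors and adaptors, 3 kinases and 9 other inhibitors tested in aCap ECs was called. In gCap ECs 1 of 15 targets tested was called, where 0.158% of all genes were. This was Vcam1, at 7.32 and 3.83 CPM in WT and 31.2 and 31.0 CPM in ERG CKO (log2 fold change 2.45, SE 0.36, edgeR adjusted p = 0.0383). It passed the low-count filter only through ERG CKO. In venous ECs none of 12 targets tested was called, where 0.147% of all genes were.

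**Figure D5:**
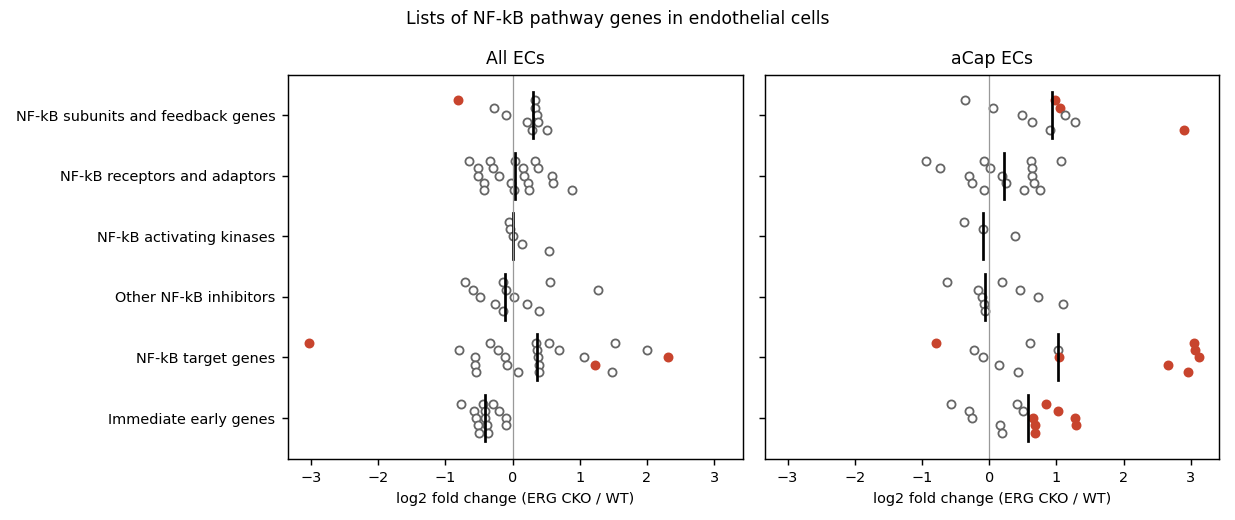
Log2 fold change of ERG CKO over WT (horizontal axis) for each tested gene of 6 lists (vertical axis) in all ECs and in aCap ECs, with a black line at the median of each list. Filled points passed an edgeR adjusted p of at most 0.05. In aCap ECs 6 targets, 7 immediate early genes and 3 members are filled above 0, where 10.6% of all genes tested passed in either direction.

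The genes whose pattern over the 67 class sums was most like that of a member were found by Pearson correlation of log2(CPM + 1) over classes and libraries, among 6404 genes with a mean of at least 20 CPM. The sums of 1 library share its depth and the sums of 1 class share its cells, so these are descriptions. Nfkbia and Nfkbiz were most like each other (r = 0.86), followed for Nfkbia by Ifrd1 (0.80) and Zc3h12a (0.78), and for Nfkbiz by Btg2 (0.78) and Tnrc18 (0.78). Tnfaip3 was most like Nfkbid (0.83), Slc9a3r1 (0.82) and Samsn1 (0.82), and Birc3 most like Bloc1s2 (0.80), Pim1 (0.78) and Nfkb2 (0.76).

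Rel was most like Il10ra, Gm9843 and Gpcpd1 (0.83, 0.83 and 0.82), and genes like Bcl3 included Entpd1 and Trafd1 (0.79 and 0.76). For Nfkb2 the genes were Herc4, Pim1 and Emd (0.77, 0.77 and 0.76), and for Relb they were Chd2, Birc3 and Rp9 (0.76, 0.73 and 0.72). Nfkb1 was most like Myo1g, Hnrnpf and Baz1a (0.71, 0.70 and 0.69). The lowest likeness was that of Rela, at 0.64 for Sh3glb1, 0.60 for Rab11a and 0.58 for Rab7.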

How the data were processed

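Whole lungs of 4 mice were dissociated by the authors, and single cells were sequenced on the 10x Genomics platform. The authors deposited UMI counts, not normalized, in 1 matrix of 20076 rows and 9363 barcodes. The submitters' processing notes name Cell Ranger 3.1.0 and mm10. The study describes fewer cells after a quality filter whose limits it does not give, and all barcodes were kept here. The lowest cell had 500 UMIs, and 7 barcode sequences occur in more than 1 library.

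Cells were clustered in Seurat 5.3.0 (2000 variable genes, CCA alignment, 30 dimensions, resolution 0.8), leaving out 99 genes (the lists used here, Erg and sex-linked genes), and ECs again with 20 dimensions at resolution 0.6. Clusters were named from marker lists with at least 3 markers, and some limits of this naming were chosen after the data were seen. Cells of unnamed clusters (874) entered no test. Scrublet (scanpy 1.11.5) called 66 cells (0.705%) doublets, which were kept.

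Counts were summed per class and library and tested with edgeR 4.0.16 in R 4.3.3 (quasi-likelihood, TMM, filterByExpr, Benjamini-Hochberg over all genes tested, threshold 0.05). The SE is the log2 fold change divided by the square root of F. The fits were tested on simulated data. With 2 mice per group the smallest p of an exact permutation test is 0.333, and none is given, and p-values measure the spread between these mice. The members and lists were chosen with earlier results of these data known. Named were all 10 members, genes of other lists called in ECs (at most 4 per direction and list, otherwise the 2 with the smallest p), Erg, and the 3 genes most like each member, of which 1 is not reported here. Alternatives were DESeq2 1.42.0, library totals, no low-count filter, each library left out, a replicate block, at most 10% mitochondrial UMIs, doublets removed, the top cell removed, no alignment and resolution 0.4.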

Additional observations from a re-analysis of the deposited data

Results flagged for a closer look

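For 3 members the change in aCap ECs differed from that in gCap ECs by an edgeR interaction test, with differences of log2 fold changes of 1.07 for Nfkbiz, 1.14 for Nfkb1 and 2.68 for Birc3. For 3 members it differed from that in venous ECs, by 1.38 for Nfkbia, 2.39 for Nfkbiz and 2.75 for Birc3. These tests were added after the data were seen, and the summed aCap markers moved with genotype in the same cells (values in the report).

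The 874 cells of unnamed clusters entered no comparison, and 4 of the 10 members were higher there in both ERG CKO libraries than in both WT libraries and 1, Bcl3, was lower in both. Over the 7153 genes with at least 30 UMIs in these cells, 19.9% were higher and 19.4% lower in this way. Nfkbiz was at 74.0 and 47.4 CPM in WT and 81.5 and 92.9 CPM in ERG CKO. Nfkb2 was at 19.3 and 11.4 CPM against 25.1 and 20.2 CPM, Rela at 29.0 and 41.7 CPM against 58.0 and 64.7 CPM, and Birc3 at 22.5 and 19.0 CPM against 42.3 and 40.4 CPM. These sums rest on 5 to 52 UMIs of a gene per library and mix cells of several kinds, and no test was made.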

How the results depend on the processing

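With 2 mice per group, single libraries decided most calls. The number of all genes called changed between fits too. With no filter on low counts, 652 genes were called higher and 573 lower in ECs, against 220 and 163 in the main fit. In aCap ECs these were 560 and 448, against 373 and 370. In ECs the 1 member called became 0 with DESeq2, with each gene's top cell removed, at resolution 0.4 and without the Tgfbi and F8 ECs, 2 with no filter on low counts, and 0 to 3 when a library was left out. In other classes the 0 members called became 3 with no filter, 1 with each gene's top cell removed, and 1 to 3 when a library was left out. In EC subtypes the 3 called became 5 with no filter, 0 when the shallow aCap cluster stood for aCap ECs, and 1 to 8 when a library was left out. For ECs against other cells 0 became at most 1 when a library was left out (range 0 to 1). Of the pathway genes, the 3 called in ECs became 17 with no filter and 0 to 8 when a library was left out.

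The replicate numbers are not said in the labels to mark a shared litter or day. Xist had UMIs only in replicate 1 of both groups (14596 and 19470) and Ddx3y only in replicate 2 (1498 and 1358). By these sex-linked genes replicate 1 was female and replicate 2 male in both groups, so differences between replicates go with sex. The labels do not state the sex. Deviations of same-numbered libraries correlated at 0.29 in ECs, with 2 pairs. With the replicate block, 2 members were called in ECs, Bcl3 (adjusted p = 0.00582, edgeR) and Nfkb1 (log2 fold change 0.50, adjusted p = 0.0173). In EC subtypes 8 were called, Nfkbiz, Nfkb1, Relb, Tnfaip3 and Birc3 in aCap ECs and Nfkbiz, Nfkbia and Bcl3 in venous ECs. The venous log2 fold changes were -1.35, -0.89 and -1.49 (edgeR adjusted p = 4.82e-05, 0.0186 and 0.0294). The block called 3 in other classes and 12 pathway genes in ECs. It also called more of all genes. In ECs these were 532 higher and 538 lower, against 220 and 163 in the main fit. They were 540 and 515 in aCap ECs (main fit 373 and 370) and 71 and 109 in venous ECs (main fit 5 and 2).

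In ECs and aCap ECs directions turned only for members that were not called. When a library was left out, the log2 fold change ranged from -0.46 to 0.17 for Nfkbia and from -0.75 to 0.055 for Nfkbiz in ECs, and from -0.17 to 0.40 for Rela and from -1.22 to 0.10 for Bcl3 in aCap ECs. The highest class stayed the same for 9 or 10 of the 10 members in every alternative run. The cause of these changes was not tested.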
